A study of Mus musculus with 8 samples.

Results

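Interferon response genes were compared between E14 mouse embryonic stem cells (ESCs) depleted of KDM2B and control ESCs. The genes were chosen by name. They are the guanylate-binding proteins (Gbp), the 2'-5' oligoadenylate synthetases (Oas), the Ifit and Ifitm families, the numbered Ifi, Irf and Stat genes, and Isg15, Isg20, Mx1, Mx2, Xaf1 and Rsad2. Of 77 mouse genes with such a symbol, 64 had a probe set that names the gene alone, out of 19938 genes measured in this way on the array. A further 8 (Gbp2, Gbp6, Gbp10, Ifi47, Ifi204, Ifi211, Isg15 and Oas1g) were read only by probe sets that also name other genes, and 5 were not analysed here. Irf2bpl meets the naming rule by its symbol but is not an interferon regulatory factor, and it was kept apart from the Irf family.

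The knockdown line (shKdm2b) stably carried a lentiviral shRNA against Kdm2b, and the control line (shScr) carried a scrambled shRNA delivered in the same way. Both lines were selected with puromycin and grown in ESC medium with LIF. Total RNA from 4 samples of each line, of passages 27 to 30 for the knockdown and 28 to 31 for the control, went onto 8 Affymetrix Mouse Gene 1.0 ST arrays. Each group rests on 1 hairpin, and no separately derived lines are named, so the p-values measure only the spread between these samples. The hairpin target sequences are shown because they are all that distinguishes the lines by design:
shKdm2b: cgctgtggaaatatctgtcat
shScr: cctaaggttaagtcgccctcg

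Interferons are secreted proteins through which a cell that senses foreign nucleic acid warns itself and its neighbours. Type I interferons bind the IFNAR receptor, whose JAK kinases phosphorylate STAT proteins, which enter the nucleus with IRF9 and bind the interferon-stimulated response element (ISRE). Interferon gamma binds its own receptor and drives STAT dimers to the gamma-activated site (GAS), and the induced proteins block viral entry, translation and replication or attack the vacuoles of intracellular parasites. Pluripotent cells are known for a weak response to interferon. LIF, the cytokine that maintains mouse ESCs, also signals through JAK kinases, in its case to STAT3.

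In these arrays Kdm2b itself was lower in each knockdown array, at 8.68 to 9.45, than in each control array, at 10.74 to 11.34 on the log2 scale (log2 fold change -2.05, SE 0.18, adjusted p = 0.000891 in limma). The values are log2 signals made with RMA, which forces the arrays to a shared distribution, so that array medians lay between 8.47 and 8.53 and a change common to most transcripts cannot be seen. Log2 fold changes are knockdown over control throughout. Signals of different probe sets are not compared gene by gene. They are only placed above or below the median of all probe sets, a coarse guide because probe sets differ in brightness, and averaged over marker lists. The labelled cell type was checked with 12 ESC markers, all of which lay above the median signal of all probe sets and none of which met the gene rule given in the next paragraph. Their mean log2 signal was 13.11 to 13.14 over the knockdown arrays and 12.84 to 13.04 over the control arrays. Of the 12, 11 had a positive log2 fold change, as did 5954 of the 11517 genes above the median signal. In 5 of them every knockdown array was above every control array (41.7%, against 11.8% of all genes). Of 12 macrophage and leukocyte markers, 10 lay below the median signal, and the mean of the list was 7.998 to 8.08 in the knockdown arrays and 7.87 to 7.96 in the control arrays. In that list Cd68 met the gene rule and was higher. Of 11 fibroblast markers, 1 (Thy1) was higher, and of 10 primitive endoderm markers none met the rule. The part of such cells in the results was not tested.

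The gene rule of the study's methods asks for an adjusted p under 0.05 in limma in over 50% of a gene's own probe sets, and for a change of 1.5-fold or more in the one with the smallest p. By this rule 5 of the 64 interferon response genes changed (7.81%), against 2.85% of all 19938 genes. Oas1c, Stat5b and Xaf1 were higher in the knockdown (3 of 64, against 1.42% of all genes), and Gbp2b and Ifit2 were lower (2 of 64, against 1.43%). When the fit was blocked on replicate number, 3 were higher and 1, Ifit2, was lower (4 of 64, against 3.27% of all genes). The count fell to 3 without knockdown replicate 2 (1.80% of all genes) or control replicate 3 (1.84%), and to 2, Ifit2 and Oas1c, without knockdown replicate 4 (1.85%) or control replicate 4 (2.15%). Without the fold limit, 10 genes passed (15.6%, against 10.3% of all genes). Of these, 5 were higher, where 5.75% of all genes were, and Oas1b and Stat6 joined the genes above. The other 5 were lower, where 4.55% of all genes were, and Ifitm3, Irf3 and Ifi35 joined. In 13 genes the knockdown and control arrays did not overlap (20.3%), a share near the 21.0% of all genes. Of these genes, 5 were higher (11.8% of all genes) and 8 were lower (9.18% of all genes).

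The 64 genes had no common direction. Their median log2 fold change was 0.04, against 0.05 over all genes. Of the 64, 36 were above 0 and 28 below, against 12296 above and 7642 below of all 19938 genes. The median size of the change regardless of sign was 0.15, against 0.12 over all genes. The log2 fold changes of Mx1 and Mx2, GTPases that block viral nucleocapsids, Rsad2, which encodes viperin, Isg20, an exonuclease of RNA, and Irf7, the amplifier of interferon alpha production, ran from -0.02 to 0.05. Of these, 4 lay below the median signal, as did 39 of all 64 genes, and at such signals RMA values compress a fold change.

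**Figure D1:**
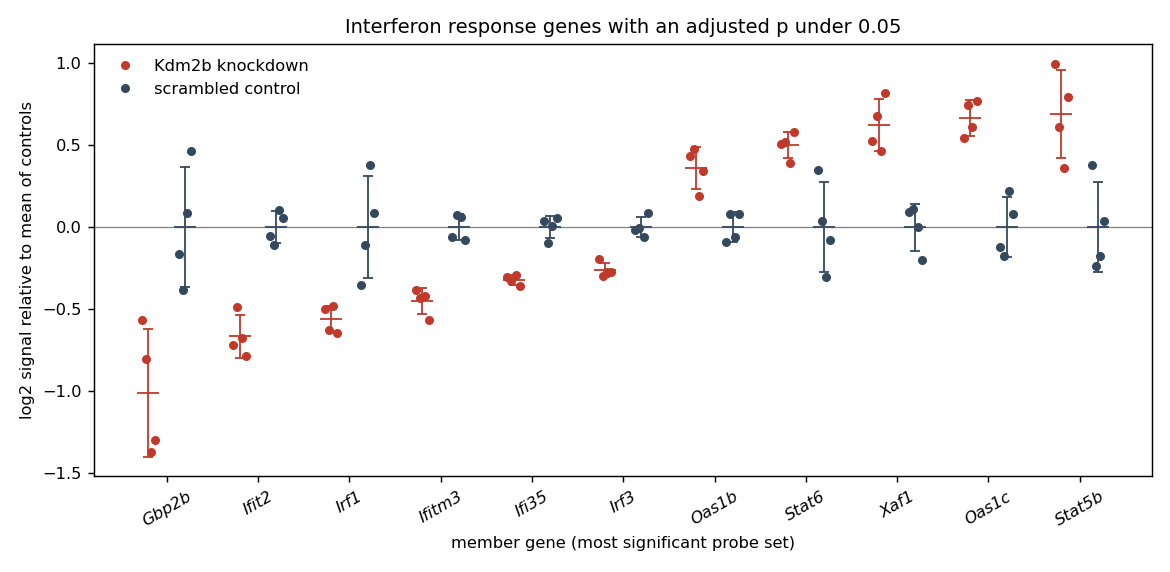
Log2 signal of each array minus the control mean (vertical axis) for the 11 interferon response genes with a probe set at an adjusted p under 0.05 in limma. Points are arrays, horizontal bars are group means and whiskers are 1 SD (n = 4 knockdown and 4 control arrays). Knockdown and control arrays overlapped only in Stat5b among these genes.

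**Figure D2:**
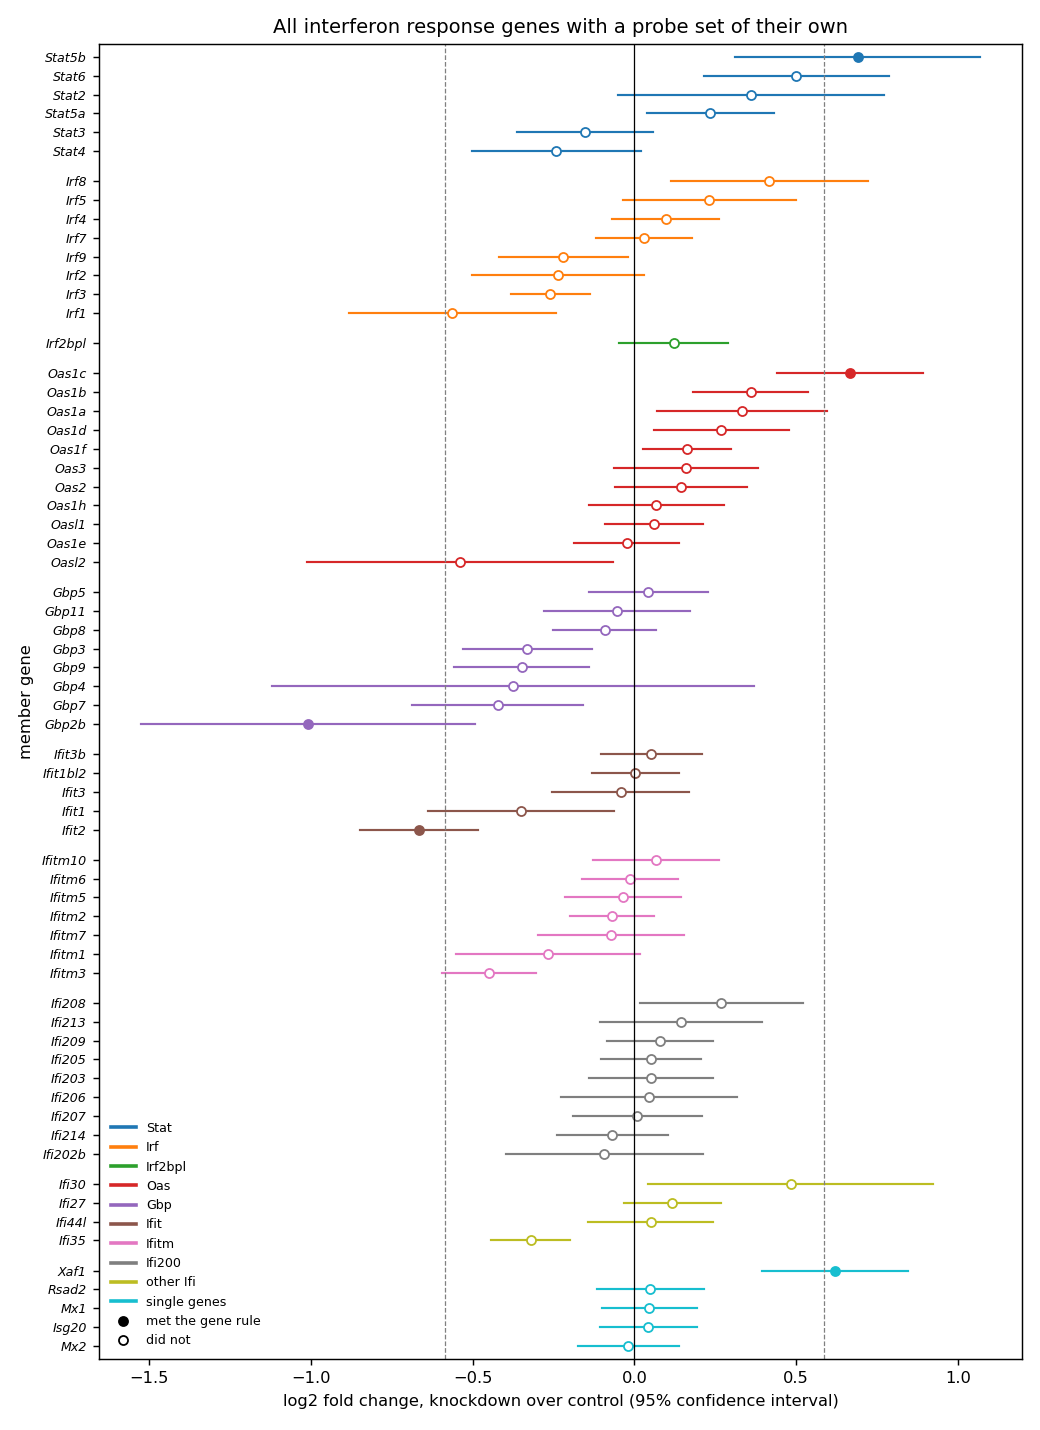
Log2 fold change (knockdown over control, horizontal axis) with its 95% confidence interval from limma for the 64 interferon response genes, coloured by family. Filled points met the gene rule, and dashed lines mark 1.5-fold in either direction. Most Gbp genes lie left of 0 and most Oas genes right of it, while the Ifi200 genes cluster around 0.

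The sequence in front of these genes was read from RefSeq promoters of GRCm38.p6, which span 250 bases before to 50 after each gene start. A promoter sequence was found for 53 of the 64 genes. The ISRE core was searched as GAAANNGAAA and the GAS element as TTCNNNGAA, each on both strands. The ISRE core was found for 24 genes (45.3%), against 3.89% of the 15614 measured genes with a promoter sequence and 3.99% of all 27025 genes of the table. The GAS element was found for 12 genes (22.6%), against 8.99% of the measured genes. By family, the ISRE core was found for 4 of 4 Gbp, 7 of 9 Ifi200, 4 of 5 Ifit, 3 of 7 Oas, 2 of 7 Ifitm, 2 of 6 Stat and 1 of 8 Irf genes. The median number of CpG, the dinucleotide that the zinc finger of KDM2B binds when unmethylated, was 5 in 300 bases, against 15 for measured genes and 7 for all promoters of the table. Families differed, with medians of 2 for Gbp, Ifi200 and Ifit, 3 for Oas, 5 for Ifitm, 8 for Stat and 18 for Irf.

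A match describes the letters and does not show that a factor binds there. Of the 24 genes with an ISRE core, 1 (Oas1c) was higher and 1 (Gbp2b) was lower, with a median log2 fold change of 0.03. Of the 29 genes with a promoter sequence and no ISRE core, 2 (Stat5b and Xaf1) were higher and 1 (Ifit2) was lower, with a median of 0.05. The difference between these groups was not tested.

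At the top of the pathway, the 16 measured ligand genes, mostly interferon alpha genes, gave no call and no unadjusted p under 0.05. Their log2 fold changes ran from -0.05 to 0.17, the highest that of Ifna2 (adjusted p = 0.196 in limma), and 13 of them lay below the median signal. The receptor gene Ifnar1, which encodes a chain of the type I interferon receptor, had signals of 10.49, 10.73, 10.77 and 10.51 in knockdown replicates 1 to 4, against 11.08, 11.12, 11.15 and 10.98 in control replicates 1 to 4. The groups did not overlap, and its log2 fold change was -0.46 (SE 0.08, adjusted p = 0.0153 in limma), short of 1.5-fold. Lifr, which encodes the LIF receptor, was separated in the opposite direction, with a log2 fold change of 0.56 (SE 0.09, adjusted p = 0.0122 in limma), also short of 1.5-fold. Its signals were 11.39, 11.58, 11.62 and 11.58 in the knockdown arrays, against 10.79, 11.21, 11.01 and 10.94 in the control arrays. Lifr met the rule without knockdown replicate 1 (0.61, adjusted p = 0.0148 in limma) or control replicate 2 (0.63, adjusted p = 0.0114 in limma). Of 13 genes for kinases and feedback regulators, none met the gene rule. The phosphatase gene Ptpn2, which dampens JAK signalling, had a log2 fold change of -0.33 in its more significant probe set (adjusted p = 0.0343 in limma), and 1 of its 2 probe sets passed. The related Ptpn1 had -0.25 (adjusted p = 0.0957 in limma).

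Of the 6 measured Stat genes, which encode the transcription factors that receptors activate, 1 met the gene rule and all lay above the median signal. Stat5b, a mediator of growth hormone and many cytokines, was higher in the knockdown. Its signals were 9.93, 9.55, 9.30 and 9.73 in knockdown replicates 1 to 4, against 9.31, 8.70, 8.76 and 8.98 in control replicates 1 to 4. The groups touched, since control replicate 1 stood at the level of knockdown replicate 3. The log2 fold change was 0.69 (SE 0.17, adjusted p = 0.0397 in limma). Leaving out any of knockdown replicates 1, 2 and 4 or control replicates 2, 3 and 4 ended the call, with adjusted p between 0.0809 and 0.112 in limma, while the log2 fold change stayed between 0.59 and 0.82 over all 8 omissions.

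Stat6, the mediator of interleukin 4, was at 10.84, 10.86, 10.73 and 10.92 in the knockdown arrays, against 10.69, 10.37, 10.03 and 10.26 in the control arrays. Every knockdown array was above every control array, and control replicate 3 was the lowest. This gave a log2 fold change of 0.50 (SE 0.13, adjusted p = 0.0452 in limma), short of 1.5-fold. Without control replicate 1, the highest control, it was 0.62 and the gene met the rule (adjusted p = 0.0115 in limma). Its relatives next to Stat5b on chromosome 11 did not pass. Stat5a had a log2 fold change of 0.24 (adjusted p = 0.130 in limma), and Stat3, the target of LIF signalling, had -0.15 (95% confidence interval -0.36 to 0.06, adjusted p = 0.337 in limma).

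Of the 8 interferon regulatory factors measured, none met the gene rule, and 4 had a positive and 4 a negative log2 fold change. Irf1, a transcription factor that interferon gamma induces, was read by 2 probe sets that differed. In the first, the knockdown arrays were at 10.38, 10.26, 10.41 and 10.24, against 10.53, 10.78, 11.26 and 10.97 in the control arrays, so the groups did not overlap and control replicate 3 was the highest. The log2 fold change there was -0.56 (SE 0.14, adjusted p = 0.0439 in limma). In the second it was 0.10 (SE 0.07, adjusted p = 0.409 in limma), with overlapping groups. The rule asks for a majority of probe sets, so no call was made. The Irf1 promoter held 1 GAS element, shown in capitals at chr11:53769899-53769957 on the plus strand, beginning 90 bases before the gene start:
Irf1: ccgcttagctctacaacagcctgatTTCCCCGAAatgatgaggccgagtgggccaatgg

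Irf3, the factor that sensors of foreign nucleic acid activate to switch on interferon beta, was lower by a small and even margin. Its signals were 9.66, 9.56, 9.58 and 9.58 in the knockdown arrays, against 9.83, 9.85, 9.79 and 9.94 in the control arrays. The groups were apart, with a log2 fold change of -0.26 (SE 0.05, adjusted p = 0.0244 in limma), short of 1.5-fold. Irf9, the DNA-binding partner of STAT proteins, had a log2 fold change of -0.22 (adjusted p = 0.157 in limma). Irf8, known from myeloid cells, was at 9.53, 9.03, 8.80 and 9.18 in the knockdown arrays, against 8.73, 8.70, 8.68 and 8.75 in the control arrays. Knockdown replicate 1 was the highest and the groups did not overlap, but the adjusted p was 0.0928 in limma for a log2 fold change of 0.42. Irf2bpl had a log2 fold change of 0.12.

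The Gbp genes encode large GTPases that interferon gamma induces and that coat and break open the vacuoles of bacteria and parasites. Of 8 measured Gbp genes, 1 met the gene rule and was lower, 7 had a negative log2 fold change, and the median was -0.34. All 8 lay below the median signal, where 6342 of all 8421 genes had a positive and 2079 a negative log2 fold change. Mouse Gbp genes stand in separate clusters on chromosomes 3 and 5, and 4 genes of each were measured. The medians were -0.38 for chromosome 3 and -0.22 for chromosome 5.

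Gbp2b, on chromosome 3, had the largest fall of the 64 genes. Its signals were 7.93, 7.69, 7.12 and 7.19 in knockdown replicates 1 to 4, against 8.32, 8.11, 8.57 and 8.96 in control replicates 1 to 4. All knockdown arrays were below all control arrays, with knockdown replicate 1 and control replicate 2 nearest to each other. The log2 fold change was -1.01 (SE 0.23, adjusted p = 0.0315 in limma), so the signal was 50.3% lower. Leaving out knockdown replicate 2 or 4, or control replicate 3 or 4, ended the call (adjusted p between 0.0703 and 0.0895 in limma), as did blocking on replicate number (adjusted p = 0.0629 in limma).

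A second probe set, which names Gbp2b together with Gbp2, moved the same way and was not counted for either gene. It was at 8.63, 7.78, 7.36 and 7.45 in the knockdown arrays, against 8.97, 8.68, 9.46 and 10.01 in the control arrays. Here too the groups were apart, by little at knockdown replicate 1 and control replicate 2. Its log2 fold change was -1.47 (SE 0.34, adjusted p = 0.0366 in limma), and the share of each gene in it cannot be told apart. Another shared probe set names Gbp4, Gbp6, Gbp8, Gbp9, Gbp10 and Gbp11 and is the only reading of Gbp6 and Gbp10. Its log2 fold change was -0.08 (SE 0.12, adjusted p = 0.707 in limma), with overlapping groups.

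Of the other Gbp genes, Gbp3 and Gbp7 had groups that did not overlap and adjusted p values just above the limit. Gbp3 was at 7.74, 7.66, 7.46 and 7.45 in the knockdown arrays, against 7.86, 7.79, 8.04 and 7.95 in the control arrays, with a log2 fold change of -0.33 (SE 0.09, adjusted p = 0.0526 in limma). Gbp7 was at 7.75, 7.71, 7.59 and 7.57 in the knockdown arrays, against 7.89, 7.91, 8.11 and 8.41 in the control arrays, with a log2 fold change of -0.42 (SE 0.12, adjusted p = 0.0600 in limma). In both genes knockdown replicates 1 and 2 were nearest to the controls. Gbp9, on chromosome 5, had a log2 fold change of -0.35 (SE 0.09, adjusted p = 0.0528 in limma), and control replicate 1, at 8.01, lay among the knockdown arrays. Gbp4 had -0.37 with a standard error of 0.33, and control replicate 3 stood far above the other arrays. Gbp5, Gbp8 and Gbp11 lay between -0.09 and 0.04.

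All 4 chromosome 3 genes with a promoter sequence held the ISRE core, Gbp2b as well as Gbp5, whose log2 fold change was 0.04. The matches are in capitals, all on the plus strand of GRCm38.p6, at chr3:142594685-142594744 for Gbp2b, chr3:142559974-142560039 for Gbp3, chr3:142530258-142530317 for Gbp7 and chr3:142496744-142496803 for Gbp5. The first base of the match nearest to the gene start lay 137, 39, 53 and 165 bases before it in that order of genes, and Gbp3 held 2 overlapping matches:
Gbp2b: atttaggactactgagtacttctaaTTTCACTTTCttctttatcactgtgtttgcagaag
Gbp3: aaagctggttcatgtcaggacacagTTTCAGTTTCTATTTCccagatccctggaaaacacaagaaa
Gbp7: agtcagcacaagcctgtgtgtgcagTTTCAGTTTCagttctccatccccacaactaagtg
Gbp5: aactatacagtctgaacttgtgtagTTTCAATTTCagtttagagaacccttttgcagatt

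Genes that flank the chromosome 3 cluster did not move with it. Unc5c, Bmpr1b, Pdlim5, Kyat3, Gtf2b and Pkn2 had log2 fold changes between -0.07 and 0.10, as the plot of neighbouring genes shows.

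Irgm1 belongs to the related family of immunity-related GTPases and is not among the 64 genes, but it was the most strongly lowered gene of the wider pathway. Its signals were 7.90, 8.21, 8.61 and 7.73 in the knockdown arrays, against 9.38, 9.85, 10.57 and 10.07 in the control arrays. The lowest control lay above the highest knockdown array, and replicate 3 was the highest in both groups. The log2 fold change was -1.86 (SE 0.27, adjusted p = 0.00672 in limma), and the call held without any one array. Iigp1, the only listed relative with a probe set of its own, had 0.07 (adjusted p = 0.533 in limma). The Irgm1 promoter held 2 overlapping ISRE cores within 30 bases of the start, in capitals at chr11:48871421-48871475 on the minus strand:
Irgm1: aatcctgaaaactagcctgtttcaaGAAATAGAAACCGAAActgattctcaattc

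**Figure D3:**
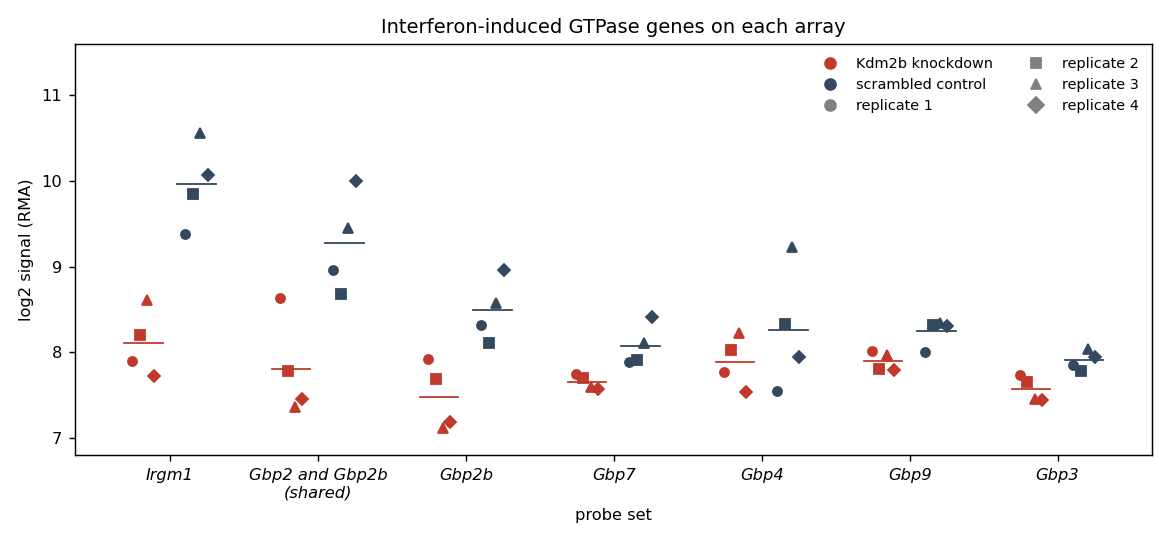
Log2 RMA signal (vertical axis) of Irgm1, the probe set shared by Gbp2 and Gbp2b, and the 5 Gbp genes with the most negative log2 fold changes, for each knockdown and control array. Marker shapes give the replicate number and horizontal lines the group means. The groups are apart for Irgm1, the shared probe set, Gbp2b, Gbp7 and Gbp3, and overlap for Gbp4 and Gbp9.

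The Oas genes encode enzymes that sense double-stranded RNA and make the 2'-5' oligoadenylates that activate RNase L, which degrades viral and cellular RNA. Mice carry a tandem array of Oas1 paralogs, several of which lack enzyme activity. Of 11 measured Oas genes, 1 met the gene rule and was higher, 9 had a positive log2 fold change, and the median was 0.16. Positive values were common on these arrays. Of all 8421 genes below the median signal, where 7 of the 11 lay, 6342 had a positive and 2079 a negative log2 fold change. Among the 7 measured Oas1 paralogs the median was 0.27. Probe sets that name 1 paralog can still take up signal from near-identical copies, and that part was not tested.

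Oas1c, a paralog known for expression in the ovary and early embryo, was at 8.30, 8.51, 8.37 and 8.53 in knockdown replicates 1 to 4, against 7.64, 7.58, 7.98 and 7.84 in control replicates 1 to 4. Each knockdown array was above each control array, for a log2 fold change of 0.67 (SE 0.10, adjusted p = 0.00782 in limma), and the call held without any one array. Oas1b, known as a flavivirus resistance gene, was at 7.38, 7.42, 7.13 and 7.29 in the knockdown arrays, against 6.85, 7.02, 6.88 and 7.03 in the control arrays. These groups did not overlap either, and the log2 fold change was 0.36 (SE 0.08, adjusted p = 0.0285 in limma), short of 1.5-fold.

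Oas1a, an active synthetase, had a log2 fold change of 0.33 (adjusted p = 0.114 in limma), Oas1d 0.27 (adjusted p = 0.111) and Oas1f 0.16 (adjusted p = 0.129), each with an unadjusted p under 0.05 and overlapping groups. The probe set that Oas1a shares with Oas1g gave 0.40 (adjusted p = 0.0932 in limma). Of the other 5 genes, Oas1e, Oas1h, Oas2, Oas3 and Oasl1, the range was -0.02 to 0.16. Oasl2 had the most negative value of the family. It was at 8.92, 8.49, 8.19 and 8.29 in the knockdown arrays, against 8.73, 8.67, 9.26 and 9.38 in the control arrays. Control replicates 3 and 4 were high and knockdown replicate 1 lay above the other controls, so the groups overlapped (log2 fold change -0.54, SE 0.21, adjusted p = 0.147 in limma).

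Oas1c and Oas1a both carried 2 overlapping ISRE cores, in capitals, on the minus strand at chr5:120812588-120812653 for Oas1c and chr5:120907526-120907570 for Oas1a. The nearer match began 108 bases before the start of Oas1c and 14 bases before that of Oas1a:
Oas1c: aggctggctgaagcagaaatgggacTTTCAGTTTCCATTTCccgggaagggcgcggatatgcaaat
Oas1a: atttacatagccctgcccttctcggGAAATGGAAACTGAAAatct

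Around the Oas1 to Oas3 run, Rph3a, Ptpn11 and Rpl6 on one side had log2 fold changes of 0.14, -0.09 and 0.02. On the other side Dtx1, a ubiquitin ligase of the Notch pathway, had 0.47 (adjusted p = 0.0766 in limma), Rasal1 had 0.18 and Ddx54 had 0.07.

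**Figure D4:**
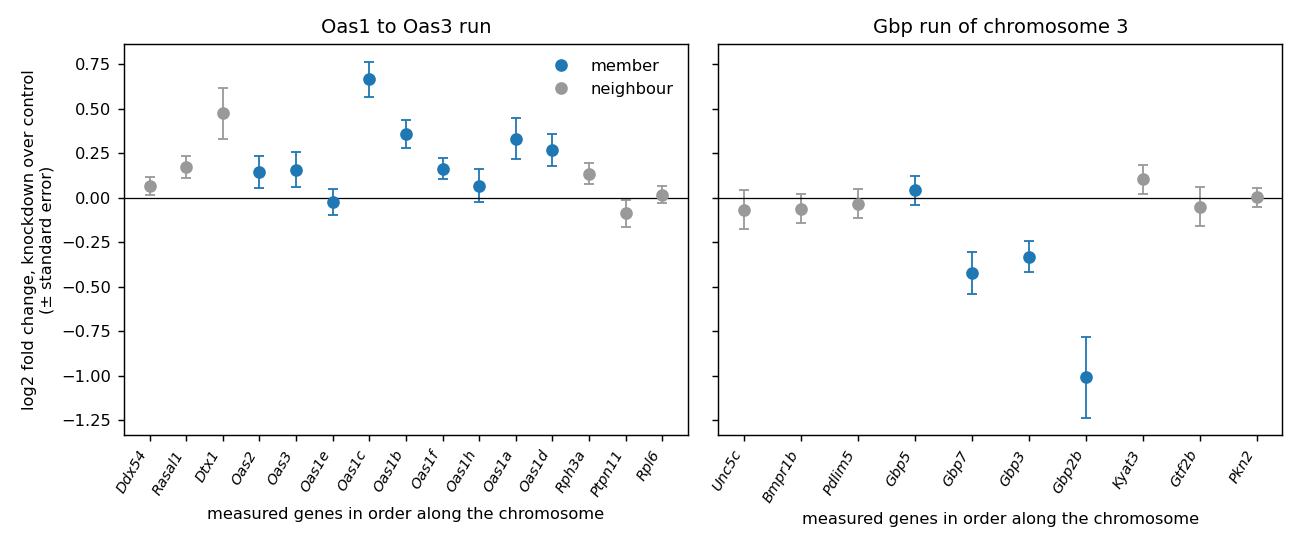
Log2 fold change (knockdown over control, vertical axis) with its standard error for measured genes in their order along the chromosome, across the Oas1 to Oas3 run and the chromosome 3 Gbp run. Blue points are interferon response genes and grey points are the 3 measured genes on either side. Within the Gbp run Gbp7, Gbp3 and Gbp2b lie below 0 and Gbp5 does not, and within the Oas run Oas1c is the highest.

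The Ifit genes encode tetratricopeptide proteins that bind foreign RNA and block its translation. Of 5 measured, 1 met the gene rule and was lower. Ifit2 was at 6.73, 6.96, 6.77 and 6.66 in knockdown replicates 1 to 4, against 7.39, 7.34, 7.55 and 7.503 in control replicates 1 to 4. The groups were well apart and the spread within each was small. Ifit2 thus had a log2 fold change of -0.67 (SE 0.08, adjusted p = 0.00373 in limma). The call held without any one array but not with array weights, where the log2 fold change was -0.57, short of 1.5-fold. Ifit1, which recognises RNA caps without a particular methyl group, was at 7.26, 7.27, 7.45 and 7.17 in the knockdown arrays, against 7.38, 7.49, 7.96 and 7.73 in the control arrays. Knockdown replicate 3 lay above control replicate 1, and the log2 fold change was -0.35 (SE 0.13, adjusted p = 0.124 in limma). Ifit3, Ifit3b and Ifit1bl2 ran from -0.04 to 0.05, and all 5 Ifit genes lay below the median signal.

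Ifit2, the family member that met the rule, had no match to the ISRE core in either of its 2 promoters of 300 bases. The 4 others had a match, Ifit1bl2 in 1 of its 2 promoters. The promoters of Ifit1 and Ifit1bl2 share the same stretch with 2 cores, read on opposite strands, and Ifit3 and Ifit3b have identical stretches. They are shown in capitals for Ifit1, at chr19:34640760-34640838, and for Ifit3, at chr19:34583348-34583441, both on the plus strand:
Ifit1: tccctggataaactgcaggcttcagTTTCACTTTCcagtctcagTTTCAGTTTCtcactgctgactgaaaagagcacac
Ifit3: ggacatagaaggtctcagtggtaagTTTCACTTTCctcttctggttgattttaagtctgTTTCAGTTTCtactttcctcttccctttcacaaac

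The Ifitm genes encode small membrane proteins that hinder the entry of enveloped viruses, and some are abundant in pluripotent and germ cells without interferon. Of 7 measured, none met the gene rule, and 5 lay above the median signal. Ifitm3, also known as the germ cell gene Fragilis, was at 13.19, 13.14, 13.15 and 13.005 in the knockdown arrays, against 13.51, 13.64, 13.63 and 13.49 in the control arrays. The groups were apart at a signal above the median, with a log2 fold change of -0.45 (SE 0.06, adjusted p = 0.00659 in limma), short of 1.5-fold. Ifitm1 had -0.27 in the more significant of its 2 probe sets (SE 0.12, adjusted p = 0.218 in limma), and the other 5 genes ran from -0.07 to 0.07.

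The Ifi200 genes, a chromosome 1 family whose proteins sense DNA or regulate transcription, gave no call. Their 9 log2 fold changes ran from -0.09 to 0.27, all below the median signal, and Ifi208, at 0.27 (adjusted p = 0.170 in limma), was the highest. Aim2, the sensor of cytosolic DNA that belongs to the same protein family but not to the symbols chosen, met the rule and was lower. Its signals were 9.14, 9.71, 9.91 and 9.51 in the knockdown arrays, against 10.55, 10.58, 10.31 and 10.19 in the control arrays. Knockdown replicate 1 was the lowest and the groups did not overlap, with a log2 fold change of -0.84 (SE 0.16, adjusted p = 0.0204 in limma). Leaving out knockdown replicate 2 or 4 or control replicate 2 or 3 moved the adjusted p to between 0.0506 and 0.0617 in limma.

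Of 4 other Ifi genes, none met the rule. Ifi47 was read only together with Olfr56, at 0.01 (adjusted p = 0.912 in limma). Ifi35, whose protein associates with the related Nmi, was at 8.50, 8.48, 8.52 and 8.44 in the knockdown arrays, against 8.84, 8.71, 8.81 and 8.86 in the control arrays. Here the groups were apart, and the log2 fold change was -0.32 (SE 0.05, adjusted p = 0.0117 in limma). Ifi30, a lysosomal thiol reductase for antigen processing, was at 13.17, 12.48, 12.34 and 12.54 in the knockdown arrays, against 12.53, 12.08, 12.05 and 11.94 in the control arrays. Replicate 1 was the highest of both groups, which therefore overlapped. The log2 fold change was 0.48 (SE 0.19, adjusted p = 0.161 in limma), while the fit blocked on replicate number gave an adjusted p of 0.0203, with the change still short of 1.5-fold.

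Among the single genes, Xaf1 met the rule and was higher. It encodes a partner of the apoptosis inhibitor XIAP that interferon can induce. Its signals were 9.48, 9.62, 9.41 and 9.77 in knockdown replicates 1 to 4, against 9.04, 9.06, 8.95 and 8.75 in control replicates 1 to 4. Each knockdown array was above each control array, and control replicate 4 was the lowest. Xaf1 had a log2 fold change of 0.62 (SE 0.10, adjusted p = 0.00994 in limma). Without knockdown replicate 4 or control replicate 4 it was 0.55, short of 1.5-fold. The gene next to Xaf1 on chromosome 11, Slc13a5, which encodes a citrate transporter, was higher by more, at 1.55 (adjusted p = 0.00104 in limma). Beyond it, 4930563E22Rik had 0.02 and Med31 had -0.0004. On the other side of Xaf1, Fbxo39 had 0.006, Tekt1 had 0.16 and Smtnl2 had 0.38 (adjusted p = 0.102 in limma). Isg15, the ubiquitin-like modifier, was read only together with Gm9706, at 0.18 (adjusted p = 0.153 in limma).

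The rest of the pathway was described with a list of 131 ligands, receptors, kinases and feedback regulators, sensors, GTPases, other effectors and antigen presentation genes that were not among the 64. Of these, 110 were measured and 5 met the gene rule (4.55%, against 2.85% of all genes), 2 higher and 3 lower, with a median log2 fold change of 0.03. Irgm1 and Aim2 are given above. Phf11d, a PHD finger gene, was lower by a log2 fold change of -0.73 (SE 0.09, adjusted p = 0.00460 in limma). Both higher genes encode large antiviral effectors. Zc3hav1, the zinc finger protein that directs viral RNA to decay, was at 9.98, 9.90, 9.55 and 10.03 in the knockdown arrays, against 8.81, 8.49, 8.58 and 9.15 in the control arrays. The groups did not overlap, and the log2 fold change was 1.11 (SE 0.16, adjusted p = 0.00667 in limma). Rnf213, a ubiquitin ligase that coats intracellular bacteria, had 0.93 (SE 0.13, adjusted p = 0.00579 in limma) and passed in both of its probe sets.

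Of 19 sensors of foreign nucleic acid and their adaptors, none met the rule. Tlr3, the endosomal receptor for double-stranded RNA, was at 7.08, 7.21, 7.20 and 7.12 in the knockdown arrays, against 7.34, 7.54, 8.003 and 7.87 in the control arrays. The groups were apart, with control replicates 3 and 4 the highest, and the log2 fold change was -0.53 (SE 0.14, adjusted p = 0.0479 in limma). Without control replicate 1 it was -0.65 and Tlr3 met the rule (adjusted p = 0.0172 in limma). Dhx58, which encodes the RNA helicase LGP2, had 0.29 (adjusted p = 0.0707 in limma). Of 12 antigen presentation genes none met the rule, and Psmb9, a subunit of the immunoproteasome, had 0.30 (SE 0.07, adjusted p = 0.0387 in limma). Nlrc5, a transactivator of MHC class I genes, had -0.21 (adjusted p = 0.0556 in limma).

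**Figure D5:**
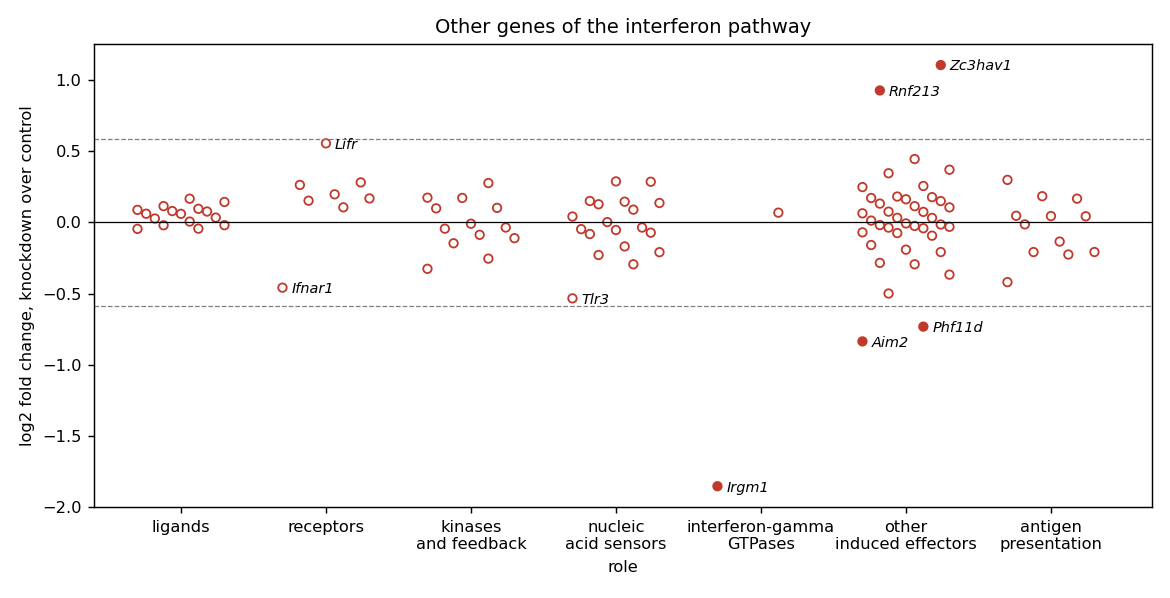
Log2 fold change (knockdown over control, vertical axis) of the 110 other measured genes of the interferon pathway by role, 1 point per gene. Filled points met the gene rule and dashed lines mark 1.5-fold. The 5 genes that met the rule are Zc3hav1 and Rnf213 above 0, and Phf11d, Aim2 and Irgm1 below 0.

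Passage differed by 1 between samples of the same replicate number. With the 3 passages that both lines share (28 to 30, 3 arrays each) and passage as a block, none of the 64 genes met the rule, against 0.802% of all genes. In that fit 22 of the 64 had an unadjusted p under 0.05 in limma. The share of all genes with such a p was not counted there, so the 22 cannot be set against it. In the main fit, which has more arrays, such a p was common: 24 of the 64 had one, as did 3352 higher and 2711 lower genes of all 19938. The log2 fold changes with passage as a block were -1.002 for Gbp2b, -0.63 for Ifit2, 0.73 for Oas1c, 0.60 for Stat5b and 0.58 for Xaf1, with adjusted p between 0.0534 and 0.159 in limma.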

How the data were processed

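The deposited log2 values were made by the authors from array intensities with RMA in oligo 1.18.1. Genome build and probe set annotation: not given in the sources used here. Of 35556 probe sets, 21789 name 1 gene, 1621 several and 12146 none here. Names came from GEO's platform annotation, updated through RefSeq (GRCm38.p6), which held all 64 symbols.

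With limma 3.58.1 (R 4.3.3), a linear model compared 4 knockdown with 4 control arrays over all probe sets, with default eBayes and Benjamini-Hochberg adjustment, and calls followed the gene rule of the study's methods. Same-numbered arrays deviated together from their group means (correlations 0.239, 0.118, 0.355 and 0.222, against -0.231 to 0.0747 between different numbers), so arrays of the same number were treated as pairs in a blocked alternative. The methods name no block, and the fit without it is reported. The number of arrays limits the precision. In a test on simulated data made from these arrays, 87% of changes of 1 and 94% of changes of 2 on the log2 scale met the limits, as did 7 of 35356 unchanged probe sets. The simulated arrays were drawn independently, unlike the same-numbered arrays here, and 100 probe sets were changed by each size. The rates hold for that setting and need not hold for the real arrays.

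The genes, lists and alternatives were chosen with earlier results of these data known. Named are the interferon response genes that met the rule or had an adjusted p under 0.05 and the 2 with the smallest p in each family, the other pathway genes that met the rule or had the 2 smallest p of their role, and, after their values were seen, members with an unadjusted p under 0.05 and Stat3, Slc13a5, Cd68 and Thy1. Flanking genes and genes of a family range are named for completeness. Alternatives are the replicate block, omission of each array, passage, dim probe sets, centring, repeated quantile normalization, eBayes with trend, array weights and the gene rule itself. Figures were drawn with matplotlib 3.10.9.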

Additional observations from a re-analysis of the deposited data

Results flagged for a closer look

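An array that stood apart from the other 3 of its group, by Dixon's criterion, was found in 5 of the 86 groups of 4 arrays examined (43 named genes, both groups), and chance flags about 1 in 20 groups. Ifi208 in knockdown replicate 1 was at 6.09, against 5.78 to 5.80 in the other knockdown arrays. Lifr in knockdown replicate 1 was at 11.39, against 11.58 to 11.62 in the others. Gbp9 in control replicate 1 was at 8.01, against 8.31 to 8.35 in the other control arrays. Oas1a in control replicate 4 was at 8.87, against 9.03 to 9.04 in the others. Ifna5, an interferon alpha gene, was at 9.82 in control replicate 2, against 9.58 to 9.61 in the others.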

How the results depend on the processing

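The counts, Kdm2b and the 43 named genes were recomputed under the alternatives that apply to them, and no log2 fold change among these changed sign. Among the interferon response genes, 5 met the rule (3 higher, 2 lower). As each array was left out, 2 to 6 did, with 1 to 4 higher and 1 to 2 lower, while 1.80% to 4.16% of all genes did: 2 without knockdown replicate 4 or control replicate 4, 3 without knockdown replicate 2 or control replicate 3, and 6, with Stat6 added, without control replicate 1. Among the other pathway genes, where 5 met the rule (2 higher, 3 lower), 4 to 6 did, with 2 to 3 higher and 2 to 4 lower. With the replicate number as a block, 1 interferon response gene was lower (Gbp2b was lost, adjusted p = 0.0629 in limma) and the block changed no other call of a named gene. With passages 28 to 30 and passage as a block, 0 interferon response genes were higher and 0 lower, and 3 other pathway genes met the rule, 1 of them higher. That fit has 6 arrays. Without dim probe sets, 25 interferon response genes were left and 2 met the rule (Stat5b and Xaf1), against 4.36% of the 11606 genes left. Of the 25, 0 were lower, since Gbp2b and Ifit2 were filtered out, as was Oas1c. With no fold limit, 10 interferon response genes (5 higher, 5 lower) and 10 other pathway genes (5 higher, 5 lower) passed. With probe sets that name several genes taken in, 6 of 72 interferon response genes met the rule (3 higher, 3 lower). In that setting 8 of 125 other pathway genes met it, 4 of them higher, and the share of all genes was not counted. Array weights ended the call of Ifit2 (log2 fold change -0.57) and added Oasl2 (-0.62, adjusted p = 0.0277 in limma), and the cause was not tested. Centring, repeated quantile normalization and eBayes with trend and robust settings left the same 5 interferon response genes. For named genes, 598 values kept their direction and side of the limits, 25 fell short of them and 6 came to pass them. Low signal limits 39 of the 64 genes, whose fold changes RMA compresses.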
